A study of Mus musculus with 29 samples.

Results

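The aortic arch of repair-deficient Ercc1Δ/- mice was followed here from 6 to 22 weeks of age. The members were 9 of the 29 samples of the series, chosen by their labels and not by any measurement, namely the 5 Ercc1Δ/- samples of 6 weeks and the 4 Ercc1Δ/- samples of 22 weeks whose mice were fed ad libitum (AL). Ercc1Δ/- mice carry 1 allele of Ercc1 with loss of function and 1 truncated allele with reduced function in all cells, and all mice were F1 hybrids of C57BL6J and FVB. At 6 weeks samples 002, 015 and 027 came from males and samples 008 and 023 from females, whereas at 22 weeks samples 013 and 026 came from males and samples 004 and 005 from females. The normal aorta over the same interval was given by WT mice (Ercc1 +/+) on AL, with 5 samples of 6 weeks and 4 of 22 weeks, after sample 003 of WT at 22 weeks was left out for its low number of reads. Each mouse gave 1 sample at 1 age, so that the comparison was cross-sectional, and the end of juvenile growth and the progress of the repair defect cannot be told apart within Ercc1Δ/-. A whole vessel segment was sequenced, and the mutation was present in every cell type and organ, which limits what can be assigned to the vessel wall.

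ERCC1 forms with XPF the endonuclease that cuts the damaged strand in nucleotide excision repair and that also acts in the repair of interstrand crosslinks and of double strand breaks. Without it, DNA lesions that block transcription persist, and the mice age early. The wall of the aortic arch consists of layers of smooth muscle between elastic lamellae, lined by endothelium and surrounded by an adventitia of fibroblasts and resident macrophages in a collagen meshwork. Most of the elastin and fibrillar collagen of a vessel is laid down during growth and is then replaced slowly.

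Levels are TMM-normalized CPM, counts scaled to 1 common library size over the tested genes, and values by sample are listed in the order 002, 008, 015, 023 and 027 for 6 weeks and 005, 013, 004 and 026 for 22 weeks. A gene was a differentially expressed gene (DEG) when its Benjamini-Hochberg adjusted p in edgeR's quasi-likelihood test was at most 0.05 and its change at least 1.2-fold, with sex in the model, and "rose" and "fell" are used for DEGs only. An error after a log2 fold change is an approximate standard error. It is the size of the change divided by the square root of the F statistic of that test. All adjusted p-values of single genes below are from this test.

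The libraries held 2299482 to 3979441 counts on genes at 6 weeks and 1294980 to 3855444 at 22 weeks, and the 2 shallow libraries of 22 weeks, 013 and 026, were those of its males. The test between the ages was therefore repeated without both, and some of its results are given with the lists and at the end. Sex and depth cannot be told apart within the group of 22 weeks. Sample 027 stood apart from the other samples of 6 weeks, with the highest values of the elastin and fibrillar collagen genes and of the fat markers, whose summed level was 5849 CPM in it and 1973 to 3010.1 CPM in the other 4. Fat markers summed to 2017 to 5143 CPM at 22 weeks, and none of the 22 tested markers was a DEG in edgeR, 4 had an unadjusted p under 0.05, and DESeq2 called 1. Ercc1 itself was at 8.51, 11.1, 11.4, 10.4 and 15.4 at 6 weeks and 14.7, 18.9, 14.6 and 15.5 at 22 weeks CPM, against 27.4 ± 9.08 (SD, n = 5) and 31.1 ± 2.27 (SD, n = 4) CPM in WT of 6 and 22 weeks. The 9 Ercc1Δ/- samples lay below both WT means, although the lowest WT sample of 6 weeks was at 14.1 CPM, and Ercc1 did not pass the test between the ages (log2 fold change 0.49 ± 0.22, adjusted p = 0.23). The smooth muscle markers Acta2, Myh11, Tagln and Cnn1 were each at 756 CPM or more in all 9 samples, whereas the lymphocyte and thymocyte markers Cd3e, Cd79a, Rag1, Dntt and Ptcra were at 2.14 CPM or less. Ckm and Acta1 of skeletal muscle were at 25.0 and 28.0 CPM in sample 013 and at 1.95 CPM or less in the other 8. Of 10 tested markers of heart and skeletal muscle 1 was a DEG, Casq1, which fell and is described with calcium handling, and the list summed to 201 to 341 CPM at 6 weeks and, at 22 weeks, to 643 CPM in sample 013 and 273 to 335 CPM in the other 3 (median log2 fold change 0.21, WT 1.02).

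Between 6 and 22 weeks 579 of 12353 tested genes were DEGs in Ercc1Δ/-, of which 261 rose (2.11% of tested genes) and 318 fell (2.57%). Of the DEGs, 113 rose and 76 fell at least 2-fold, and 13 rose and 8 fell at least 4-fold. The 4 samples of 22 weeks lay outside the range of the 5 samples of 6 weeks for 849 tested genes (6.87%), and for 422 of the 579 DEGs. In WT 29 genes were DEGs over the same interval (0.235%), 12 higher and 17 lower. The falls were concentrated in genes with many reads. In the highest of 5 equal classes of mean CPM, which is not corrected for gene length, 168 genes fell and 57 rose, and in the lowest class 29 fell and 52 rose. Among the DEGs 570 were protein-coding, of 11653 tested, and 7 were long noncoding RNAs, of 388 tested. All 7 fell, which is no larger a share than the 2.57% over all tested genes.

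The 2 genotypes share no sample, so that their changes could be set side by side. Of the 579 DEGs, 395 had the same sign in WT and 570 had a smaller change there, which the choice of genes by their change in Ercc1Δ/- favours, and 17 were DEGs in both genotypes, 16 of them in the same direction. The difference between the genotypes was tested as an interaction of genotype and age. This called 104 genes (0.842%), and 90 of the 579 DEGs were among them, 88 of these with the larger change in Ercc1Δ/-. For the other 489 DEGs a difference from WT was not shown. The exception in direction was Tub, a neuronal tubby protein, at 36.1, 50.5, 54.1, 50.4 and 32.5 at 6 weeks and 23.2, 27.3, 25.6 and 36.3 at 22 weeks CPM, which fell in Ercc1Δ/- (log2 fold change -0.73 ± 0.17) and rose in WT (0.75 ± 0.15, interaction adjusted p = 0.0017). Tub lost its call without sample 004 or 005 (adjusted p up to 0.075).

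**Figure D1:**
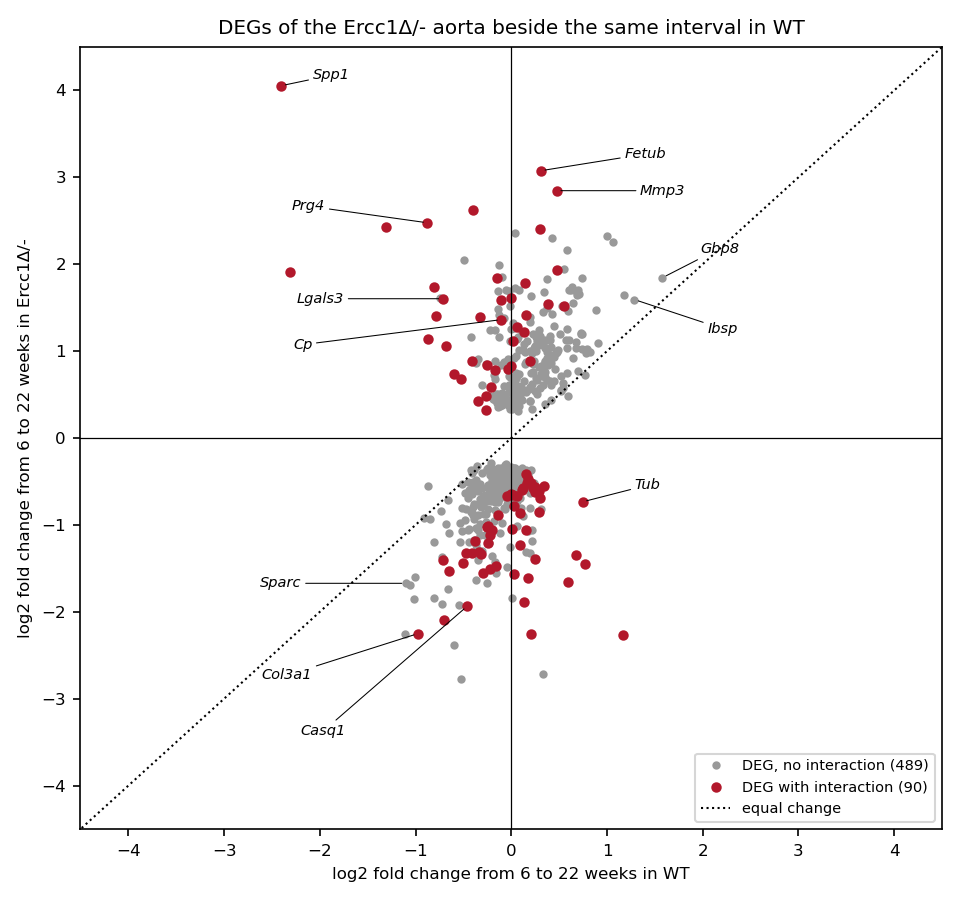
Each point is 1 of the 579 DEGs of the Ercc1Δ/- aorta, with its log2 fold change from 6 to 22 weeks in WT on the horizontal axis and in Ercc1Δ/- on the vertical axis, and the 90 red points passed the interaction test. Most points lie farther from 0 on the vertical than on the horizontal axis, and Spp1 stands alone at the upper left with 4.05 in Ercc1Δ/- and -2.40 in WT.

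Many collagen genes fell. Fibrillar collagens, which give the wall its tensile strength, had 5 of 8 tested genes lower and none higher. The 5 genes encode chains of collagens I, III and V. The median log2 fold change of the 8 was -0.98, against 0.01 over all tested genes and -0.56 for the 8 in WT. The summed level of the list was 19557 to 38535 CPM at 6 weeks and 6669 to 8302 CPM at 22 weeks. In a bulk sample fewer cells of a type and less RNA per cell cannot be told apart, here and in every list that follows.

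Col3a1 (ENSMUSG00000026043, chr1:45350698-45395840, GRCm39), which encodes the chain of collagen III, was at 11150, 10280, 10500, 7737 and 16730 at 6 weeks and 2556, 2339, 1991 and 2452 at 22 weeks CPM. Every sample of 22 weeks was below every sample of 6 weeks, and sample 027 was the highest. The log2 fold change was -2.25 ± 0.18 (adjusted p = 1.2e-07), that in WT -0.97 ± 0.17 (adjusted p = 0.013), and the interaction had an adjusted p of 0.011. Col1a2 (ENSMUSG00000029661, chr6:4504814-4541555), 1 of the chains of collagen I, was at 8221, 8127, 7865, 6566 and 11230 at 6 weeks and 3189, 2870, 2501 and 2885 at 22 weeks CPM. Again the ages did not overlap, and Col1a2 fell by more than in WT (log2 fold changes -1.53 ± 0.13 and -0.65 ± 0.13, interaction adjusted p = 0.017). Col1a1 (ENSMUSG00000001506, chr11:94827050-94843868), the other chain of collagen I, was at 5334, 4782, 4633, 3458 and 7781 at 6 weeks and 1415, 1611, 1142 and 1466 at 22 weeks CPM and fell as well (-1.84 ± 0.19, adjusted p = 4.7e-06), but a difference from its WT change of -0.80 was not shown (interaction adjusted p = 0.072). The collagen V chains Col5a1 and Col5a2, which set the diameter of collagen I fibrils, fell by less, with -0.96 ± 0.13 and -0.99 ± 0.11. Col5a2 was also a DEG in WT (-0.68 ± 0.11, adjusted p = 0.0039).

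The 250 bases before the start of the canonical transcript of 3 of these genes are shown because the members fell together and the box CCAAT is known from collagen I promoters. Capitals mark CCAAT on either strand (ATTGG on the opposite one). The sequences are from GRCm39 at chr11:94826800-94827049, chr6:4505243-4505492 and chr1:45350448-45350697, all on the plus strand.
Col1a1: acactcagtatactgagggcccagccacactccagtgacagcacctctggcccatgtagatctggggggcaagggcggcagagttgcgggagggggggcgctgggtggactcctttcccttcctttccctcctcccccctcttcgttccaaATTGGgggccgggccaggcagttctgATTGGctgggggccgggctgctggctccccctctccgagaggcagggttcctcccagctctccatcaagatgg
Col1a2: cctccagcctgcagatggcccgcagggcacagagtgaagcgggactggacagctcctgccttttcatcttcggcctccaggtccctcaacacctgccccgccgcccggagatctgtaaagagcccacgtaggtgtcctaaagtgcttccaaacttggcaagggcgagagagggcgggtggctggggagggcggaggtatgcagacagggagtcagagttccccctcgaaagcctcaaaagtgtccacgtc
Col3a1: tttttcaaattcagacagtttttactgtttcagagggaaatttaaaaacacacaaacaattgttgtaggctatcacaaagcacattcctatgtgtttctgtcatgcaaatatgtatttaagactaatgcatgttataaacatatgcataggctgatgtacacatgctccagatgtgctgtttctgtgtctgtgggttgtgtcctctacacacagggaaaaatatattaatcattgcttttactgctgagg
The Col1a1 window holds 2 matches, 99 and 73 bases before the start, and the other windows hold none, which says only that these letters are not in them, since the annotated start need not be the one used in the aorta. In a window of 250 bases before and 50 after the start, 7 of the 16 collagen genes that fell hold CCAAT (43.8%), as do 4 of the other 15 tested collagen genes (26.7%) and 38.7% of the promoters of 12326 tested genes. This motif was chosen after the values had been seen, and a match is a string of letters and not a bound site.

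**Figure D2:**
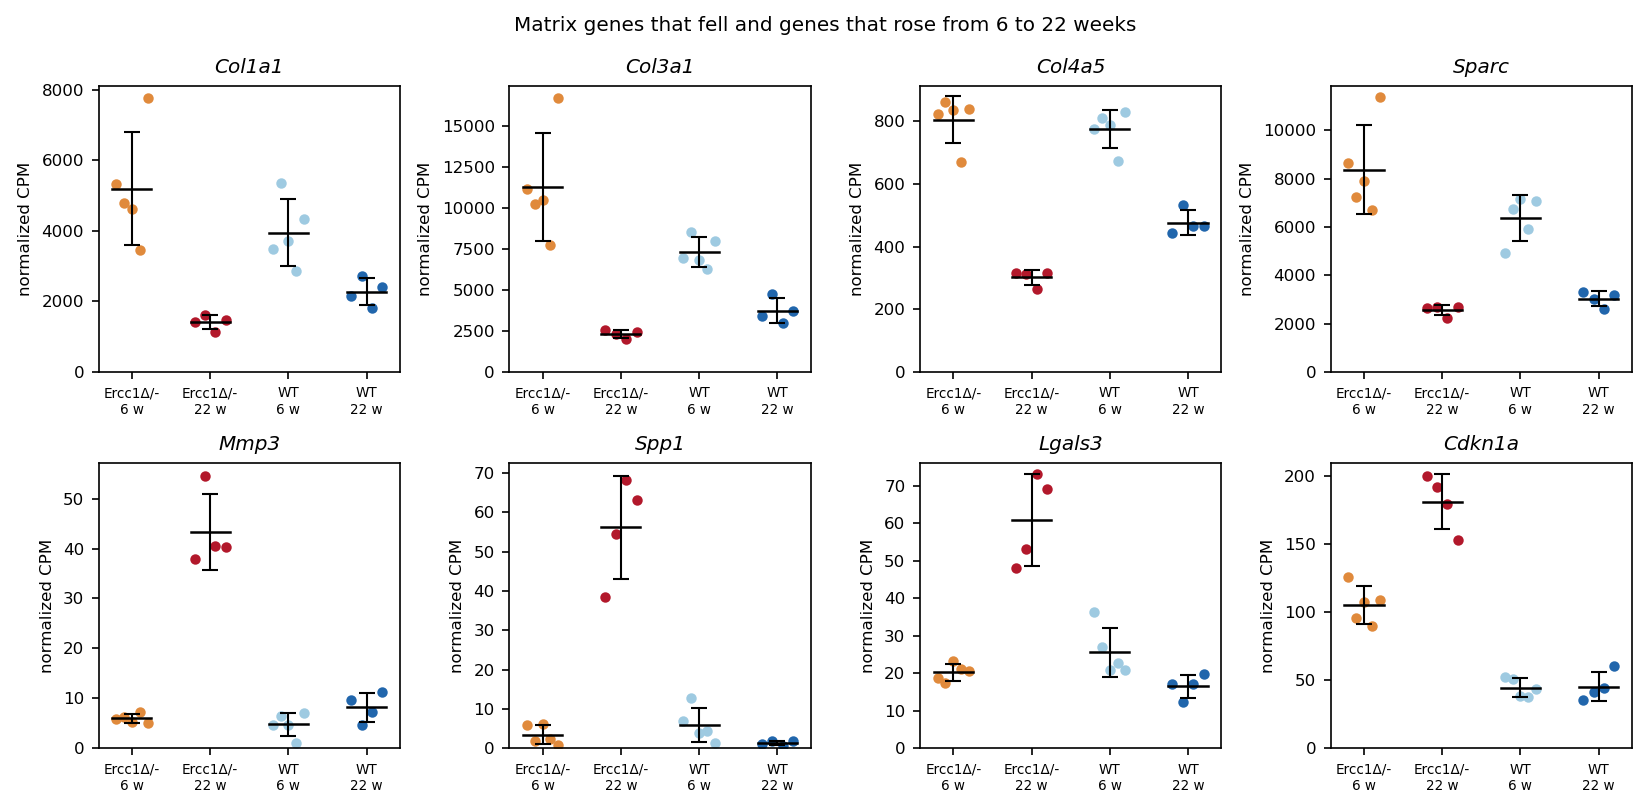
Normalized CPM of 8 genes in each AL sample, with 1 point per mouse, the mean as a line and the SD as bars, for Ercc1Δ/- and WT at 6 and 22 weeks (w). For Col1a1, Col3a1, Col4a5 and Sparc the Ercc1Δ/- samples of 22 weeks lie below all those of 6 weeks, and for Mmp3, Spp1, Lgals3 and Cdkn1a they lie above them.

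Of the 23 other collagens tested, 11 fell and 1 rose (median log2 fold change -0.54, WT -0.31), and 7 had an interaction. Col4a5 (ENSMUSG00000031274, chrX:140258354-140472231) and Col4a6, chains of basement membrane collagen IV that are read from 1 shared region in opposite directions, both fell. Col4a5, which had the smallest p of all genes, was at 822, 861, 835, 671 and 839 at 6 weeks and 314, 312, 266 and 317 at 22 weeks CPM, with no overlap. It fell by 2.65-fold on the ratio scale of 22 to 6 weeks, that is a log2 fold change of -1.41 ± 0.10 (adjusted p = 1.1e-08), and by less in WT (-0.71 ± 0.09, interaction adjusted p = 0.0098). Col4a6 was at 569, 646, 809, 662 and 499.8 at 6 weeks and 395, 505, 357 and 437 at 22 weeks CPM and fell less (-0.59 ± 0.12), with sample 013 inside the range of 6 weeks. The paired chains Col4a1 and Col4a2 fell almost equally (-0.79 ± 0.10 and -0.80 ± 0.11).

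Of collagen VI, which forms beaded filaments around cells, Col6a1, Col6a2, Col6a3 and Col6a6 fell. Col6a2 was at 1617, 1707, 1496, 1157 and 1820 at 6 weeks and 578, 609.8, 539 and 721 at 22 weeks CPM and Col6a1 at 1602, 1657, 1630, 1139 and 1679 at 6 weeks and 616, 633, 531 and 648 at 22 weeks CPM, so that both dropped in all 4 samples of 22 weeks below all 5 of 6 weeks. Their log2 fold changes were -1.33 ± 0.13 and -1.33 ± 0.13, those of Col6a3 and Col6a6 -1.31 ± 0.14 and -1.47 ± 0.20, and all 4 had an interaction (adjusted p from 0.0049 to 0.017) with WT changes between -0.47 and -0.16 that were no DEGs. Col14a1 and Col15a1, which link fibrils and basement membranes, fell too (-0.88 ± 0.12 and -1.37 ± 0.14), Col14a1 with an interaction (adjusted p = 0.024). The single collagen gene that rose was Col8a1, a network collagen of vessel walls that is made by migrating smooth muscle and endothelium. It was at 28.4, 18.9, 28.6, 31.1 and 26.6 at 6 weeks and 66.8, 62.9, 61 and 67.2 at 22 weeks CPM, higher in every sample of 22 weeks, with a log2 fold change of 1.28 ± 0.16 (adjusted p = 2.5e-05) against 0.06 ± 0.17 in WT (interaction adjusted p = 0.012).

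Enzymes that fold, modify and trim collagen followed, with 11 of 28 lower and none higher. Serpinh1, the collagen chaperone HSP47, was at 1036, 974, 994, 808 and 1125 at 6 weeks and 489.8, 618, 534 and 514 at 22 weeks CPM. Its groups did not overlap, its log2 fold change was -0.86 ± 0.11, and WT changed little (0.10 ± 0.11, interaction adjusted p = 0.004). Adamts2 and Bmp1, which remove the propeptides of fibrillar collagens, fell with -0.82 ± 0.11 and -0.48 ± 0.10. The prolyl hydroxylase P3h1, the lysyl hydroxylase Plod2 and the prolyl isomerase Fkbp10 of the endoplasmic reticulum fell by less (-0.48 ± 0.12, -0.40 ± 0.10 and -0.58 ± 0.13). When sample 004, 005 or 008 was left out, 6 of the 11 calls were made. Plod2 lost its call without sample 004 or 005 (adjusted p up to 0.093), P3h1 without 002, 005, 008 or 026 (up to 0.12) and Fkbp10 without 004 or 008 (up to 0.061).

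Elastic fibres consist of elastin on a scaffold of fibrillin microfibrils, and 10 of 27 of their genes fell and none rose (median -0.35, WT -0.10). Eln, elastin itself, was at 10720, 12080, 9941, 4164 and 21810 at 6 weeks and 2701, 3636, 2432 and 3185 at 22 weeks CPM. Sample 027 was far above and sample 023 far below the other samples of 6 weeks, yet all 4 samples of 22 weeks were lower (log2 fold change -1.91 ± 0.31, adjusted p = 0.0021, interaction adjusted p = 0.28). Fbn1, fibrillin-1, was at 600.1, 612, 574, 456 and 573 at 6 weeks and 262, 252, 224 and 258 at 22 weeks CPM, with no overlap. It fell by more (-1.18 ± 0.12, adjusted p = 1.7e-06) than in WT (-0.38 ± 0.12, interaction adjusted p = 0.019). The microfibril proteins Mfap4 and Mfap5 fell similarly (-1.06 ± 0.11 and -1.20 ± 0.12), and Fbln5, fibulin-5, which guides elastin onto microfibrils, fell by 1.57-fold on the ratio scale (log2 fold change -0.65 ± 0.12, interaction adjusted p = 0.049).

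The lysyl oxidases crosslink elastin and collagen. Loxl2 was at 71.2, 58, 64.2, 53.1 and 69 at 6 weeks and 24.6, 19.7, 19.3 and 27.6 at 22 weeks CPM and had the largest fall of the 3 that were DEGs, with -1.44 ± 0.12 (adjusted p = 1.2e-07, interaction adjusted p = 0.0063). Loxl1 and Lox fell as well (-0.68 ± 0.13 and -0.55 ± 0.15), and Lox was a DEG also in WT (-0.87 ± 0.15). Of the latent TGF-beta binding proteins Ltbp3 fell (-0.35 ± 0.10), while Ltbp2 did not pass the test in either genotype (0.24 ± 0.10 and -0.46 ± 0.10 in WT) but had an interaction (adjusted p = 0.016). Lox lost its call without sample 002, 004, 005, 008, 023 or 026 (adjusted p up to 0.12) and Ltbp3 without 002, 004, 005, 008, 013, 015 or 026 (up to 0.12).

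Basement membrane and integrin genes showed 7 falls in 30 tested genes and no rise. The laminin chains Lama4 and Lamc1 fell (-0.68 ± 0.11 and -0.60 ± 0.10), as did nidogen Nid1 (-0.94 ± 0.18), the integrin ligand nephronectin Npnt (-0.69 ± 0.11) and the integrin Itga9, a receptor of tenascin and osteopontin (-0.66 ± 0.11, interaction adjusted p = 0.017). Perlecan, Hspg2, fell with -0.46 ± 0.12. Among matricellular proteins, which sit in the matrix and signal to cells, 6 fell and 4 rose, and 4 fell without sample 004 or 026. Sparc, osteonectin, which binds collagen during its assembly, was at 8651, 7256, 7910, 6690 and 11380 at 6 weeks and 2632, 2693, 2249 and 2674 at 22 weeks CPM. It was lower at 22 weeks in every sample in Ercc1Δ/- (-1.67 ± 0.12, adjusted p = 2.1e-08), and also fell in WT (-1.10 ± 0.12), with no interaction shown (adjusted p = 0.14). Postn, periostin, and Ccn5 fell with -0.37 ± 0.09 and -1.01 ± 0.12. Mgp, matrix Gla protein, an inhibitor of calcification made by smooth muscle, rose from 2008, 2005, 2171, 2385 and 1801 CPM at 6 weeks to 2857, 3675, 3197 and 3577 CPM at 22 weeks (0.68 ± 0.15), opposite in sign to WT (-0.53 ± 0.15, interaction adjusted p = 0.007). The matricellular list had more rises than falls when all libraries were thinned to 1 total. Postn lost its call without sample 004 or 026 (adjusted p up to 0.074) and Hspg2 without 002, 004, 005 or 008 (up to 0.12).

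Proteases and their inhibitors moved in both directions. Mmp3 (ENSMUSG00000043613, chr9:7445822-7455975), stromelysin-1, which degrades proteoglycans, laminin and collagens and activates other metalloproteases, was at 5.85, 6.31, 5.28, 7.32 and 5.14 at 6 weeks and 37.9, 54.5, 40.5 and 40.3 at 22 weeks CPM. The lowest sample of 22 weeks was 37.9 and the highest of 6 weeks 7.32, a 7.19-fold rise (log2 fold change 2.85 ± 0.21, adjusted p = 2.1e-08), and in WT the change was 0.48 ± 0.24 (interaction adjusted p = 0.00075). The tissue inhibitors Timp1 and Timp4 rose too. Timp1 was at 22.6, 16.9, 23.3, 18.3 and 20.6 at 6 weeks and 30.6, 49.2, 43.9 and 59.8 at 22 weeks CPM and Timp4 at 18.1, 17.7, 17.6, 22 and 28.7 at 6 weeks and 36.8, 48.5, 32 and 32.3 at 22 weeks CPM, both without overlap, with 1.14 ± 0.30 and 0.89 ± 0.17 in Ercc1Δ/- and -0.87 ± 0.32 and -0.41 ± 0.18 in WT (interaction adjusted p = 0.043 and 0.0098). Mmp2, gelatinase A, and the membrane-anchored Mmp17 fell (-0.53 ± 0.14 and -0.67 ± 0.10), Mmp17 with an interaction (adjusted p = 0.017). Of the ADAMTS and HtrA serine proteases 5 of 15 fell, among them Adamts10 and Htra3 (-0.58 ± 0.11 and -0.61 ± 0.13), and Htra4 alone rose. Htra4 was at 14.9, 14.9, 16.7, 17.1 and 16.3 at 6 weeks and 52.4, 56.1, 46.1 and 37.7 at 22 weeks CPM, higher in every sample of 22 weeks, with 1.59 ± 0.14 (adjusted p = 1.3e-07) against -0.10 ± 0.15 in WT (interaction adjusted p = 0.00013). Mmp2 lost its call without sample 002, 004 or 026 (adjusted p up to 0.12) and Timp1 without 002, 004, 008, 013, 023, 026 or 027 (up to 0.12).

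**Figure D3:**
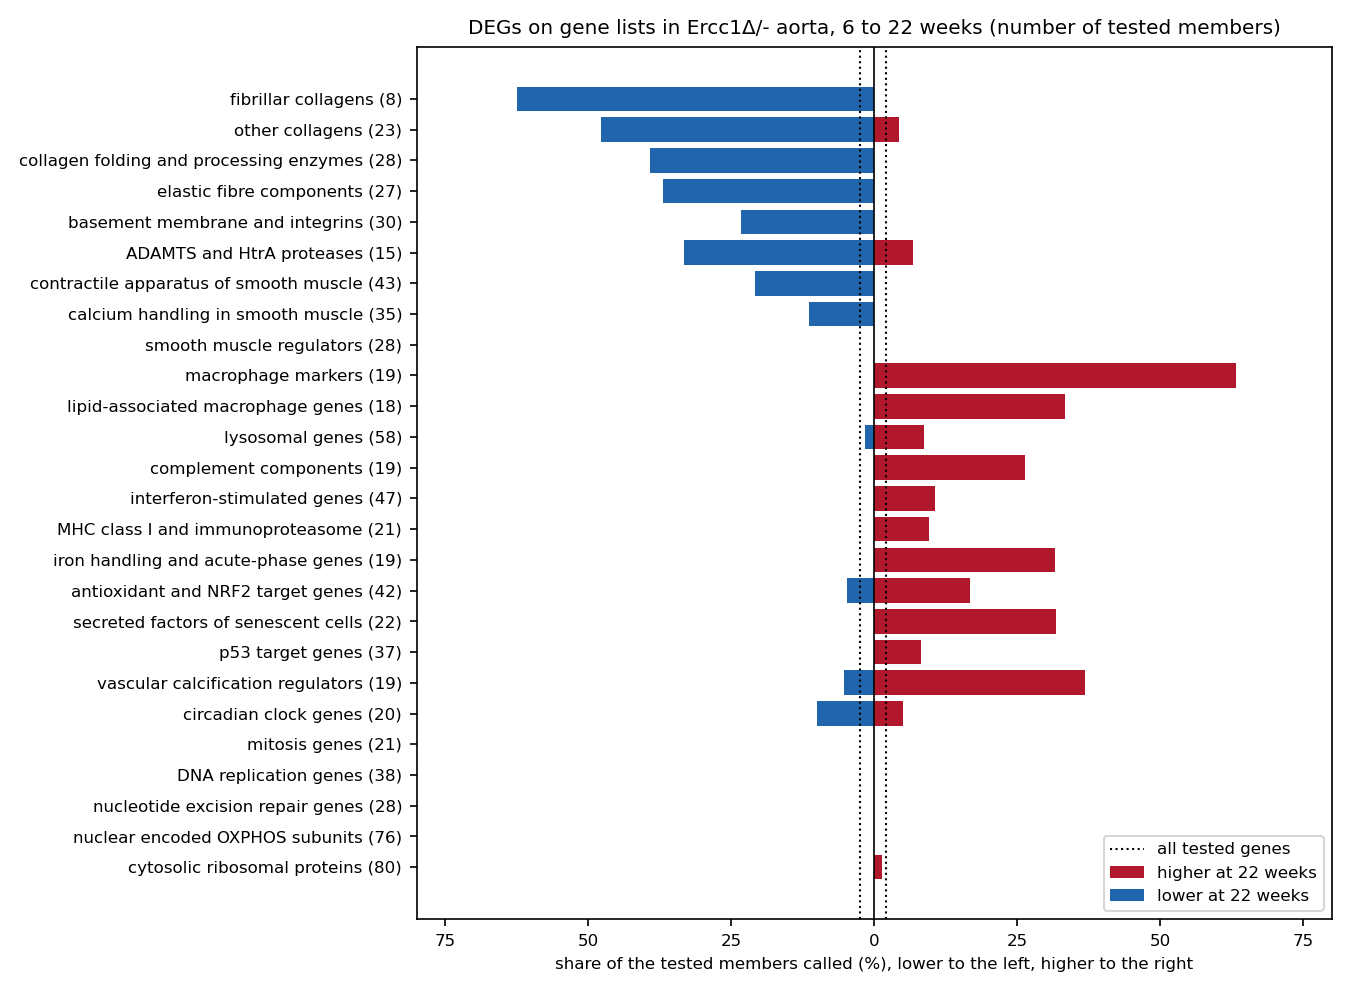
For 26 gene lists the bars give the share of tested members in percent that fell (left) or rose (right) from 6 to 22 weeks in Ercc1Δ/-, with the number of tested members in brackets, and the dotted lines mark the shares over all tested genes, 2.57% lower and 2.11% higher. Collagen and elastic fibre lists extend to the left, macrophage, acute-phase and calcification lists extend to the right, and mitosis, replication and repair lists have no bar.

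The contractile apparatus of smooth muscle had 9 of 43 genes lower and none higher (median -0.29, WT -0.05). Actg2, the enteric smooth muscle actin, was at 218, 258, 148, 164 and 236 at 6 weeks and 70.8, 106.8, 66.6 and 145 at 22 weeks CPM and fell in every sample of 22 weeks relative to 6 weeks (-1.11 ± 0.19). Vcl, vinculin, which ties actin to adhesion sites, and Tpm1, tropomyosin, fell with -0.58 ± 0.10 and -0.52 ± 0.11, and the vascular amine oxidase Aoc3 with -0.77 ± 0.11. Sh3bgr, a small muscle protein, was at 264, 262, 304, 291 and 316 at 6 weeks and 114, 140.1, 103 and 142 at 22 weeks CPM, less than the lowest value of 6 weeks in all 4 samples of 22 weeks, with -1.21 ± 0.10 (adjusted p = 5.9e-08, WT -0.24 ± 0.09, interaction adjusted p = 0.00075).

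The main contractile markers differed among the samples of 22 weeks. Cnn1, calponin, was at 1389, 1407, 1493, 1161 and 1436 at 6 weeks and 876, 1254, 756 and 1087 at 22 weeks CPM and fell (-0.46 ± 0.12, adjusted p = 0.019). Myh11, the smooth muscle myosin heavy chain, was at 8962, 9978, 13170, 10320 and 7385 at 6 weeks and 6178, 9007, 5255 and 9391 at 22 weeks CPM and did not pass (-0.42 ± 0.16, adjusted p = 0.15). For both genes the female samples 005 and 004 were the lowest of all 9, and the male samples 013 and 026 lay in or next to the range of 6 weeks. The summed level of the list was 45830 and 42456 CPM in the females 005 and 004, 61317 and 60275 CPM in the males 013 and 026, and 55675 to 74734 CPM at 6 weeks. Within females 11 genes of the list fell and within males 2, without samples 013 and 026 12 fell, without sample 004, 005 or 008 6 fell, and without sample 027 14 fell. Acta2 and Tagln did not pass (-0.30 ± 0.12 and -0.13 ± 0.11). None of the 28 tested regulators of smooth muscle genes, such as Srf (-0.26 ± 0.15), was a DEG in edgeR or DESeq2, and 4 had an unadjusted p under 0.05. Cnn1 lost its call without sample 004, 005 or 008 (adjusted p up to 0.11).

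Calcium handling had 4 falls among 35 tested genes. Casq1, calsequestrin-1, a calcium store protein of the sarcoplasmic reticulum that is also a skeletal muscle marker, was at 128, 106.7, 102, 79 and 179 at 6 weeks and 22.4, 28, 22.2 and 46.4 at 22 weeks CPM, far lower in all 4 samples of 22 weeks (-1.94 ± 0.17, adjusted p = 2.9e-07, WT -0.46 ± 0.15, interaction adjusted p = 0.0026). The exchanger Slc24a3, the L-type channel Cacna1c and the plasma membrane pump Atp2b4 fell less (-0.41 ± 0.09, -0.52 ± 0.15 and -0.41 ± 0.11), and 2 of the 4 calls were made when 004, 005, 008, 015 or 023 was left out, and 6 genes fell without 027. Of genes for vasoactive signals, Gucy1b1, a subunit of the nitric oxide receptor guanylyl cyclase, and the adrenergic receptor Adra1d fell (-0.48 ± 0.10 and -1.05 ± 0.21), whereas Ace, which makes angiotensin II, rose from 1009, 1048, 1052, 938 and 656 CPM to 1399, 1441, 1192 and 1174 CPM (0.47 ± 0.12). Adm, adrenomedullin, missed the threshold (0.59 ± 0.17, adjusted p = 0.052) but fell in WT (-0.79 ± 0.16) and had an interaction (adjusted p = 0.0049). Cacna1c lost its call without sample 004, 005, 008, 015, 023 or 027 (adjusted p up to 0.24), Atp2b4 without 004, 005, 008, 015 or 023 (up to 0.15) and Ace without 005, 013 or 023 (up to 0.11).

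Among the groups that rose, macrophage markers stood at 12 of 19 higher and none lower, with a median log2 fold change of 1.13 in Ercc1Δ/- and 0.43 in WT, where none was a DEG in edgeR or DESeq2 and 3 had an unadjusted p under 0.05. All 19 were positive in Ercc1Δ/-. Their summed level was 403 to 842 CPM at 6 weeks and 846 to 1463 CPM at 22 weeks, and sample 013 lay just above sample 015, the highest of 6 weeks. Mpeg1, the pore-forming perforin-2 of phagocytes, was at 10.6, 11.9, 17.1, 19.5 and 19.3 at 6 weeks and 61.1, 33.3, 54.4 and 50.4 at 22 weeks CPM and rose without overlap (1.70 ± 0.20, adjusted p = 6.6e-06). Cd68, a lysosomal membrane glycoprotein of macrophages, was at 15.9, 7.57, 17.6, 16.8 and 12.8 at 6 weeks and 50.4, 21.2, 37.6 and 22.2 at 22 weeks CPM (1.29 ± 0.25, adjusted p = 0.003). Adgre1, the F4/80 antigen, was at 7.71, 10.1, 18.5, 9.46 and 8.99 at 6 weeks and 27.8, 15.2, 19.8 and 14.8 at 22 weeks CPM and rose with overlap, since sample 015 of 6 weeks was above samples 013 and 026 (0.93 ± 0.24). Ctss, cathepsin S, and Lyz2, lysozyme, rose with 1.67 ± 0.23 and 1.13 ± 0.25, and Csf1r, the receptor for the macrophage growth factor, did not pass (0.60 ± 0.24, adjusted p = 0.2). Adgre1 lost its call without sample 002, 004, 005, 008 or 023 (adjusted p up to 0.16) and Lyz2 without 004 or 005 (up to 0.053).

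None of the macrophage markers had an interaction in edgeR or DESeq2, and 9 had an unadjusted interaction p under 0.05, so that a difference from WT was not shown for any of them. The count depended on single libraries, with 4 markers higher without sample 004 or 005, 5 without 002 or 008, 7 without 023 and 18 without 015. Within females 15 markers rose and within males 1, and 14 rose without samples 013 and 026. Of 17 markers of resident perivascular macrophages 2 rose and 2 fell, but none rose without sample 002, 004, 005 or 008, 5 rose without 015, and 1 fell without 004. The carbonyl reductase Cbr2 and the growth factor Igf1 fell (-0.54 ± 0.08 and -0.92 ± 0.20). Igf1 lost its call without sample 004 (adjusted p up to 0.051).

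**Figure D4:**
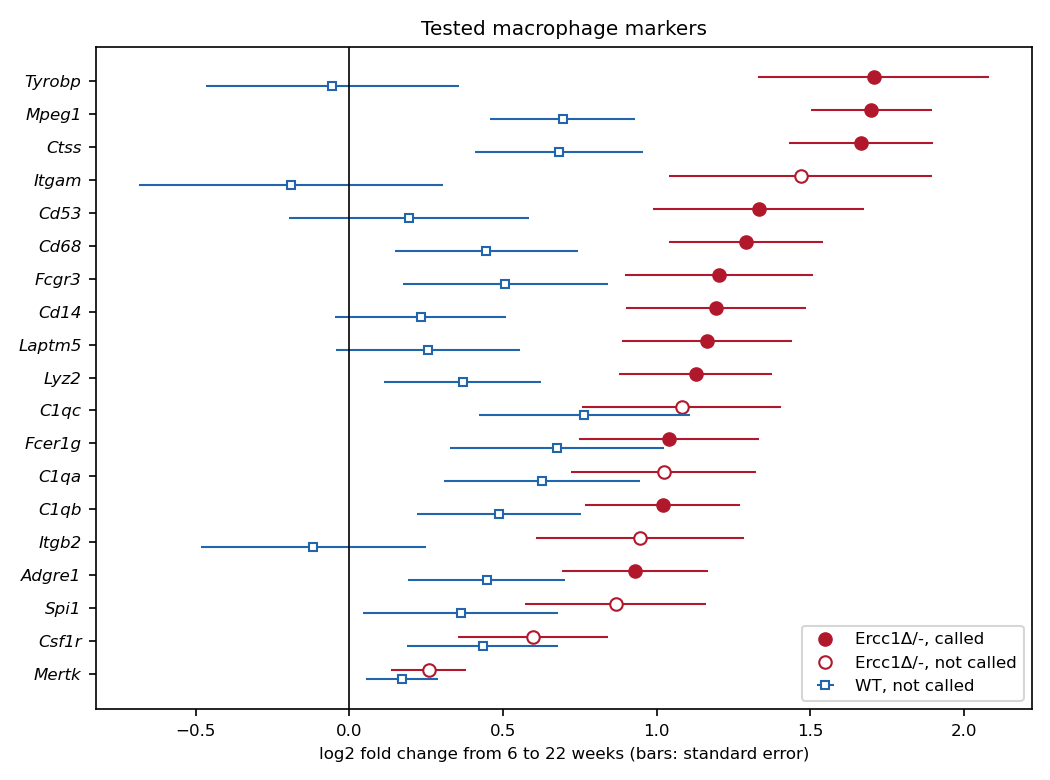
Log2 fold change from 6 to 22 weeks of the 19 tested macrophage markers, with standard errors, in Ercc1Δ/- (circles, filled for the 12 that were DEGs) and in WT (open squares, none of them DEGs). All circles lie right of 0, with Mertk the lowest and Tyrobp the highest at 1.71, and the squares lie to their left.

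Genes of lipid-laden macrophages had 6 of 18 higher and none lower. Spp1 (ENSMUSG00000029304, chr5:104582165-104589235), osteopontin, a secreted ligand of integrins and CD44, was at 5.85, 1.77, 6.16, 2.44 and 0.857 at 6 weeks and 38.5, 54.5, 68.3 and 63.2 at 22 weeks CPM. The samples of 6 weeks were at 6.16 CPM or less and all of 22 weeks were at 38.5 CPM or more, the largest rise of any DEG (4.05 ± 0.43, adjusted p = 2.2e-05). In WT Spp1 was at 5.91 ± 4.35 (SD, n = 5) and 1.35 ± 0.62 (SD, n = 4) CPM and was no DEG (-2.40 ± 0.57), and the interaction had an adjusted p of 0.00035. Gpnmb, a glycoprotein of phagocytic cells, was at 18.9, 24, 22.9, 20.1 and 14.6 at 6 weeks and 49.5, 57.6, 64.9 and 63.2 at 22 weeks CPM and also rose without overlap (1.54 ± 0.16, adjusted p = 1.3e-06, interaction adjusted p = 0.011).

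Lgals3 (ENSMUSG00000050335, chr14:47605208-47623624), galectin-3, which binds galactosides on cells and matrix, was at 18.9, 17.4, 23.3, 21.1 and 20.6 at 6 weeks and 48.1, 53, 73.2 and 69.3 at 22 weeks CPM. It at least doubled in every sample of 22 weeks over the highest value of 6 weeks (1.60 ± 0.18, adjusted p = 3.9e-06), with the opposite sign in WT (-0.72 ± 0.18, interaction adjusted p = 7e-05). Abcg1, which exports cholesterol, was at 8.51, 5.04, 7.04, 2.44 and 7.71 at 6 weeks and 22.4, 16.7, 22.7 and 18.2 at 22 weeks CPM (1.84 ± 0.27, interaction adjusted p = 0.013), and Lipa, the lysosomal acid lipase, rose with 0.46 ± 0.10. Lysosomal genes as a whole moved little, with 5 of 58 higher, 1 lower and a median of 0.10, and the number higher was 2 without sample 008 and 3 without sample 004 or 005. The exception was Ctsk, cathepsin K, a collagen-degrading protease, which was at 88.2, 81.2, 89.7, 88.2 and 89.1 at 6 weeks and 56.9, 45.5, 53.9 and 55.1 at 22 weeks CPM and fell in Ercc1Δ/- and WT alike (-0.71 ± 0.11 and -0.66 ± 0.11).

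Complement genes had 5 of 19 higher and none lower (median 0.68, WT 0.16). C4b, of the classical pathway, was at 163, 96.1, 282, 180.1 and 194 at 6 weeks and 636, 796, 588 and 629 at 22 weeks CPM, and the lowest sample of 22 weeks was 588 CPM against 282 CPM as the highest of 6 weeks (1.94 ± 0.20, adjusted p = 1.4e-05, interaction adjusted p = 0.019). C1qb, C3ar1, the receptor for C3a, and Serping1, the C1 inhibitor, rose with 1.02 ± 0.25, 1.70 ± 0.36 and 0.69 ± 0.12. Without sample 015 10 complement genes rose, and without 002, 004 or 005 3 rose. Vcam1 and Icam1, adhesion receptors for leukocytes on endothelium and smooth muscle, rose. Vcam1 was at 135, 139.5, 114, 86.4 and 65.1 at 6 weeks and 302, 245, 295 and 324 at 22 weeks CPM, higher in every sample of 22 weeks (1.41 ± 0.18, interaction adjusted p = 0.026), and Icam1 changed by 0.86 ± 0.15. Of 10 tested chemokines 1 was a DEG, Cx3cl1, the membrane-bound ligand of CX3CR1 (1.25 ± 0.27), while 3 rose without sample 013 and 2 without 015, 023 or 027. C1qb lost its call without sample 002, 004, 005, 008 or 023 (adjusted p up to 0.096).

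Of 47 interferon-stimulated genes tested, 5 rose and none fell, against 2.11% and 2.57% over all tested genes. All 47 had a positive log2 fold change, with a median of 0.49 in Ercc1Δ/- and 0.34 in WT. An unadjusted p under 0.05 was held by 29 in Ercc1Δ/-, against 2198 of 12353 tested genes, and by 5 in WT. The ages did not overlap for 21 of the 47, against 6.87% of all tested genes. The summed level of the list was 1447 to 1937 CPM at 6 weeks and 2181.7 to 2661 CPM at 22 weeks. Irf7, the interferon regulatory factor that amplifies the response, was at 11.7, 13.9, 18.9, 9.15 and 23.1 at 6 weeks and 48.4, 39.4, 33.4 and 38.3 at 22 weeks CPM, with the lowest sample of 22 weeks above the highest of 6 weeks (1.42 ± 0.30, adjusted p = 0.0081). Ifitm3, an antiviral membrane protein, was at 100.5, 101, 111, 141 and 146 at 6 weeks and 208, 219, 209.6 and 212 at 22 weeks CPM (0.82 ± 0.14), and Slfn2, Ifi27l2a and Cmpk2 rose with 1.55 ± 0.28, 1.52 ± 0.28 and 1.04 ± 0.24. Irf9, Irf3 and Sting1, which carry or start the signal, did not pass (0.39 ± 0.12, -0.04 ± 0.13 and 0.70 ± 0.30). The number of calls was 10 without sample 015, 11 without sample 027 and 4 without sample 026. It was 2 without samples 013 and 026, 2 within males and 9 within females. With all libraries thinned to 1 total it was 2. None of these genes had an interaction in edgeR or DESeq2, while 4 had an unadjusted interaction p under 0.05. Cmpk2 lost its call without sample 026 (adjusted p up to 0.074).

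The element GAAANNGAA, which interferon factors bind, was found on either strand in 22 of the 47 promoters of this list (46.8%), from 250 bases before to 50 after the start, and in 7.90% of all promoters. None of the 5 genes that rose held it in this window, which says nothing of sites outside it. In other interferon groups 2 of 12 GTPases induced by interferon gamma and 3 of 26 genes that sense nucleic acids rose. The latter count was 1 without sample 002, 008, 005 or 026 and 6 without sample 015. Gbp8 and Irgm1 rose (1.84 ± 0.29 and 0.71 ± 0.17), Gbp8 in WT as well (1.58 ± 0.22), and Ifi204 and Ifi205, sensors of DNA, rose with 1.13 ± 0.31 and 1.196 ± 0.31. Gbp8, Ifi204 and Ifi205 have near-identical family members that can share reads, which makes their values uncertain. B2m, the light chain of MHC class I, was at 256, 234, 238, 273 and 249 at 6 weeks and 465, 319.7, 482 and 393 at 22 weeks CPM and rose (0.71 ± 0.12, adjusted p = 0.00059), and H2-D1 rose with 0.56 ± 0.12, with the same limit on shared reads. These were the 2 DEGs among 21 tested genes of MHC class I and the immunoproteasome (median 0.38, WT 0.33). Of the 21, 10 in Ercc1Δ/- and 11 in WT had an unadjusted p under 0.05, and none had an interaction. Irgm1 lost its call without sample 008, 023 or 026 (adjusted p up to 0.069), Ifi204 without 002, 005, 008, 023 or 026 (up to 0.26) and Ifi205 without 002, 005, 008 or 026 (up to 0.15).

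Targets of p53, the factor that answers DNA damage, had 3 of 37 higher and none lower (median 0.19, WT 0.07), and 5 were higher without sample 027. Cdkn1a (ENSMUSG00000023067, chr17:29309936-29319701), the cell cycle inhibitor p21, was at 126, 95.8, 107.3, 89.7 and 109 at 6 weeks and 199.9, 192, 179.8 and 153 at 22 weeks CPM, against 44.7 ± 6.86 (SD, n = 5) and 45.4 ± 10.5 (SD, n = 4) CPM in WT. All 4 samples of 22 weeks were above all 5 of 6 weeks (0.80 ± 0.13, adjusted p = 0.00061), and the change differed from the WT change of -0.03 with an interaction adjusted p of 0.045. Aen, a nuclease of apoptosis, and Psrc1, a microtubule protein, rose with 0.67 ± 0.16 and 1.08 ± 0.20. Of 10 tested cell-cycle inhibitors of senescence and nuclear lamins 1 rose, Cdkn1a, and none fell. Of the 10, 7 were negative (median -0.10, WT -0.03). Of factors that senescent cells secrete, 7 of 22 rose and none fell (median 0.43, WT -0.07), and 5 had an interaction. They were Mmp3, Spp1, Lgals3, Gpnmb and Timp1, described above, Tnfrsf1b, and Igfbp2, a binding protein of insulin-like growth factors, at 36.7, 11.6, 43.5, 9.46 and 19.7 at 6 weeks and 49.5, 109, 36.6 and 85.4 at 22 weeks CPM (1.65 ± 0.32). For Igfbp2 the males were above the females at both ages, and samples 005 and 004 lay in or near the upper range of 6 weeks. The summed level of the secreted factors overlapped between the ages, with 4487 to 5647 CPM at 6 weeks and 4977 to 5535 CPM at 22 weeks. Il6 had at most 1 count in any of the 9 samples and was not tested. Aen lost its call without sample 004 or 013 (adjusted p up to 0.06).

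None of 38 replication genes, 21 mitosis genes and 28 nucleotide excision repair genes was a DEG in edgeR or in DESeq2, 4, 1 and 3 had an unadjusted p under 0.05, and the medians were 0.04, -0.05 and 0.00. Only 21 of the 72 genes of the mitosis list had enough counts to be tested. Immediate early genes, which respond quickly to handling, had 2 DEGs among 28, Socs3 and Maff (1.00 ± 0.25 and 0.59 ± 0.16), and Jun did not pass (-0.66 ± 0.30, adjusted p = 0.27). Maff lost its call without sample 005, 008, 013, 026 or 027 (adjusted p up to 0.12) and Socs3 without 004, 005, 008 or 023 (up to 0.11).

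Genes of iron handling and the acute phase had 6 of 19 higher and none lower, with a median of 0.74 against -0.02 in WT. Cp (ENSMUSG00000003617, chr3:20011090-20063930), ceruloplasmin, a copper oxidase that loads iron onto transferrin, was at 68, 55, 67.7, 56.8 and 47.1 at 6 weeks and 169, 168, 142 and 126 at 22 weeks CPM. The samples of 22 weeks were all at 126 CPM or more and those of 6 weeks at 68 CPM or less (1.36 ± 0.12, adjusted p = 1.2e-07), and WT did not change that way (-0.10 ± 0.12, interaction adjusted p = 7e-05). Serpina3n, an acute-phase protease inhibitor, was at 70.2, 42.6, 88.8, 73.5 and 49.7 at 6 weeks and 175, 205, 156 and 132 at 22 weeks CPM (1.40 ± 0.21, interaction adjusted p = 0.013). Osmr, the receptor for oncostatin M, a cytokine of the interleukin 6 family, was at 45.2, 52, 61.1, 67.1 and 37.7 at 6 weeks and 119.8, 121, 112 and 108 at 22 weeks CPM and rose without overlap (1.12 ± 0.14, interaction adjusted p = 0.0079). Ferritin chains Ftl1 and Fth1 rose (0.88 ± 0.11 and 0.56 ± 0.09), Ftl1 with an interaction (adjusted p = 0.036), although pseudogenes of both can share their reads.

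Antioxidant genes and targets of NRF2 had 7 of 42 higher and 2 lower (median 0.26, WT -0.02), and 11 were higher without sample 027 and 1 lower without sample 004, 005, 008, 015 or 023. Txnrd1, thioredoxin reductase, was at 81.3, 89.3, 78.3, 85.8 and 89.9 at 6 weeks and 104, 120.4, 111 and 108 at 22 weeks CPM, a small rise without overlap (0.38 ± 0.09). Srxn1, sulfiredoxin, was at 50, 44.6, 41.8, 42.4 and 51.8 at 6 weeks and 61.4, 68.2, 80.8 and 69.3 at 22 weeks CPM (0.61 ± 0.12), and the heme oxygenase Hmox1 rose in a scattered way, with 69.1, 20.4, 73.7 and 36.3 CPM at 22 weeks against 16.4 to 31.7 CPM at 6 weeks (1.16 ± 0.29). Gpx1, the main cytosolic glutathione peroxidase, missed the threshold (0.28 ± 0.08, adjusted p = 0.067) but had an interaction (adjusted p = 0.044), and Gpx7, a peroxidase of the endoplasmic reticulum, fell from 47, 26, 38.7, 31.7 and 52.7 CPM to 15.3, 25.8, 17.8 and 12.1 CPM (-1.12 ± 0.20). The glutathione transferases Gsta3 and Gstk1 rose (2.05 ± 0.46 and 0.62 ± 0.15), Gsta3 with near-identical family members. Noxo1, an organizer of NADPH oxidase, fell (-1.30 ± 0.22). Hmox1 lost its call without sample 002, 004, 005, 008 or 023 (adjusted p up to 0.098), Gsta3 without 004, 005 or 008 (up to 0.066) and Gstk1 without 002 or 004 (up to 0.13).

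NRF2 binds the antioxidant response element, of which the core TGACNNNGC was searched on both strands. It was present in 8 of 42 promoters of the list (19.0%, exact 95% interval 8.60% to 34.1%, counting error only) and in 13.7% of all promoters, a share that lies inside this interval. Of the 9 DEGs of the list only Txnrd1 and Srxn1 held it. The Txnrd1 window (GRCm39, chr10:82694763-82695012, plus strand) is shown with the match in capitals, which lies on the opposite strand 65 bases before the start.
Txnrd1: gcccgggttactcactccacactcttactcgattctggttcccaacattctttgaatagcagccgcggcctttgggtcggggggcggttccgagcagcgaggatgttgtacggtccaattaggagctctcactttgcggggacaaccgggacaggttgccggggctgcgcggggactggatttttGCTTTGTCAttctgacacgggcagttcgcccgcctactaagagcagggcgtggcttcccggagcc

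Growth factors moved gene by gene, and their counts rested on few libraries, with 1 in place of 3 higher among FGF and PDGF genes without sample 004 or 005. Fgf1, Fgf2 and Pdgfc, mitogens of smooth muscle and fibroblasts, rose (0.83 ± 0.17, 0.58 ± 0.16 and 0.48 ± 0.13), and Pdgfd fell (-0.45 ± 0.12). Pdgfc, at 31.6, 34, 33.9, 26.9 and 30 at 6 weeks and 43.9, 40.9, 48.5 and 40.3 at 22 weeks CPM, had an interaction (adjusted p = 0.045). In TGF-beta and BMP signalling Tgfb2 and the secreted Fstl1 fell and Bmp2 and the BMP antagonist Chrdl1 rose (-0.58 ± 0.13, -1.03 ± 0.10, 1.11 ± 0.27 and 1.47 ± 0.30). Fstl1, at 1987, 1891, 2051, 1678 and 2423 at 6 weeks and 1006, 1123, 838 and 909.8 at 22 weeks CPM, roughly halved in all samples of 22 weeks, with an interaction (adjusted p = 0.0079). The number lower on the TGF-beta and BMP list was 3, which became 1 without sample 004 and 6 without sample 027, and the 3 lower on the Wnt list became 1 without sample 002, 008, 023 or 004. The Wnt antagonist Wif1 and the R-spondin receptor Lgr6 fell and Wnt11 rose (-0.89 ± 0.19, -0.39 ± 0.11 and 1.08 ± 0.28). Scube3, a secreted protein of BMP and Hedgehog signalling, was at 352, 430.1, 433, 342 and 289 at 6 weeks and 200.4, 276, 196 and 246 at 22 weeks CPM and fell (-0.69 ± 0.12), with the opposite sign in WT (0.30 ± 0.12, interaction adjusted p = 0.0049). Fgf2 lost its call without sample 002, 004, 005, 008 or 026 (adjusted p up to 0.16), Pdgfc without 004, 005 or 023 (up to 0.13) and Pdgfd without 005, 008, 013, 023 or 026 (up to 0.11). Tgfb2 lost its call without sample 004 (adjusted p up to 0.07), Bmp2 without 004, 005, 008 or 023 (up to 0.11) and Lgr6 without 002, 004, 005, 008, 015 or 023 (up to 0.19). Wnt11 lost its call without sample 002, 004, 008 or 013 (adjusted p up to 0.13).

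Of imprinted genes tied to growth 3 of 18 fell and none rose (median -0.06, WT 0.01), and none was a DEG in WT. The noncoding RNAs Meg3 and Rian, neighbours in 1 imprinted cluster, fell with -0.76 ± 0.13 and -0.94 ± 0.13, and Nnat, at 5.85, 5.8, 9.68, 3.66 and 14.1 at 6 weeks and 0.566, 0, 1.95 and 2.02 at 22 weeks CPM, fell with -2.27 ± 0.56 (interaction adjusted p = 0.013) at counts near the limit of detection. Igf1 fell in Ercc1Δ/- and had a like estimate in WT, where it was no DEG (-0.91 ± 0.19, adjusted p = 0.056). Nnat lost its call without sample 005, 008, 013 or 026 (adjusted p up to 0.077).

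Regulators of vascular calcification had 7 of 19 higher and 1 lower, the highest share of rises after the macrophage list among lists with more than 3 tested genes. The risers include proteins that hold back mineral, Mgp, Ahsg and Spp1, and others tied to bone, Bmp2 and Ibsp. Ahsg, fetuin-A, was at 10.6, 7.82, 11.9, 7.63 and 9.85 at 6 weeks and 34.5, 30.3, 23.2 and 21.5 at 22 weeks CPM (1.62 ± 0.24, interaction adjusted p = 0.018), and its neighbour Fetub, fetuin-B, at 2.92, 1.77, 1.32, 2.14 and 2.57 at 6 weeks and 14.4, 34.1, 12.9 and 14.1 at 22 weeks CPM (3.08 ± 0.30, adjusted p = 5.7e-07, interaction adjusted p = 0.0049). Both are known as products of the liver, and all 4 samples of 22 weeks were above all of 6 weeks for both. Ibsp, bone sialoprotein, rose in both genotypes (1.59 ± 0.28 and 1.29 ± 0.25), Enpp2, autotaxin, rose (0.79 ± 0.14), and Alpl, tissue-nonspecific alkaline phosphatase, which promotes mineral, fell (-0.65 ± 0.19). Alpl lost its call without sample 002, 004, 005, 008, 015 or 026 (adjusted p up to 0.15).

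In the circadian clock 1 gene rose and 2 fell of 20, with 1 fall without sample 004, 008 or 013, 4 without 023 and 3 without 027. Per3 was at 142, 161, 187, 158 and 165 at 6 weeks and 76.4, 71.2, 72 and 95.5 at 22 weeks CPM, lower in every sample of 22 weeks (-1.05 ± 0.15, WT 0.00 ± 0.14, interaction adjusted p = 0.012), and Hlf, a clock output factor, fell with -1.05 ± 0.24. Bmal1, which peaks when Per3 is low, rose from 0.266 to 2.75 CPM at 6 weeks to 2.02 to 7.58 CPM at 22 weeks (2.36 ± 0.67). The hour at which each mouse was killed is not given in the sources used here, and its part in this result was not tested. The metallothioneins Mt1 and Mt2, which bind zinc and copper and respond to glucocorticoids, were at 148, 110.5, 102, 154 and 119 at 6 weeks and 206, 226, 196 and 206 at 22 weeks CPM and 70.2, 50.2, 58.5, 91.2 and 54 at 6 weeks and 142, 151, 120 and 129 at 22 weeks CPM and rose (0.73 ± 0.17 and 1.06 ± 0.23), with the opposite sign in WT (-0.59 ± 0.18 and -0.68 ± 0.24, interaction adjusted p = 0.013 and 0.018). Hlf lost its call without sample 004, 008 or 013 (adjusted p up to 0.056), Bmal1 without 002, 004, 005, 008, 013 or 015 (up to 0.2) and Mt1 without 004, 005 or 008 (up to 0.062).

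Subunits of oxidative phosphorylation had no DEG among 76 nuclear and 12 mitochondrial genes in edgeR or DESeq2, with 1 unadjusted p under 0.05 in each list (medians 0.11 and 0.35). Of 80 cytosolic ribosomal proteins 78 were positive with a median of 0.23, and Rplp1 was a DEG (0.42 ± 0.12). Without sample 005 2 and without sample 023 6 ribosomal protein genes rose, and without any other of the 9 libraries none did. Of fibroblast markers Pi16, Serpinf1, Col14a1 and Mfap5 fell, Pi16 with -0.98 ± 0.19 and Serpinf1 with -0.81 ± 0.11, and Ly6a rose (no marker without sample 004, 005 or 008, and 2 without 026), while the defining markers Pdgfra and Dcn did not pass (0.12 ± 0.12 and 0.38 ± 0.13). Of 24 endothelial markers 1 rose, Flt1, a receptor of VEGF (0.60 ± 0.14), and Pecam1 and Cdh5 did not pass (-0.33 ± 0.22 and -0.21 ± 0.28). Rplp1 lost its call without sample 002, 004, 008, 013, 015, 026 or 027 (adjusted p up to 0.23) and Flt1 without 008 or 013 (up to 0.074).

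The lists of lymphocyte, thymocyte, neutrophil, nerve and red cell markers, of cartilage, of Notch signalling, of stress genes of the endoplasmic reticulum, of heat-shock genes and of cholesterol and fatty acid synthesis had no DEG in edgeR. In DESeq2 1 gene each was called for the endoplasmic reticulum, heat-shock, fatty acid synthesis and cartilage lists, and between 0 and 7 members of each list had an unadjusted p under 0.05. Only 2 of 27 lymphocyte, 3 of 19 thymocyte and 2 of 21 neutrophil and mast cell markers had enough counts to be tested. The 2 tested lymphocyte markers were positive, each with an unadjusted p under 0.05. The lymphocyte list summed to 55.2 to 77.1 CPM at 6 weeks and 83.8 to 98.5 CPM at 22 weeks. Of 11 genes of MHC class II presentation only Ctss rose (3 genes without sample 027 and 4 within females). Of the 11, 8 were positive, with a median of 0.65 in Ercc1Δ/- and 0.68 in WT. An unadjusted p under 0.05 was held by 5 in Ercc1Δ/- and 7 in WT, where DESeq2 called 3. Of 28 proteoglycan genes 2 rose and 3 fell, the former 1 without sample 004, 005, 008, 013 or 027 and the latter 1 without sample 002, 004 or 005.

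Some of the strongest single changes belonged to few or no lists. Sncg, gamma-synuclein, was at 69.1, 61.5, 79.2, 67.1 and 70.2 at 6 weeks and 174, 282, 172 and 167 at 22 weeks CPM (1.52 ± 0.15, adjusted p = 1.5e-06, interaction adjusted p = 0.037). Tmem176b and Tmem176a, membrane proteins of myeloid cells whose starts lie 103 bases apart on opposite strands, were at 25, 33.3, 26.4, 19.5 and 18.4 at 6 weeks and 88, 62.9, 89 and 79.3 at 22 weeks CPM and 15.9, 19.2, 13.2, 9.77 and 9.85 at 6 weeks and 51.5, 45.5, 49.8 and 45 at 22 weeks CPM. Both rose without overlap (1.65 ± 0.18 and 1.78 ± 0.20), and Tmem176a had an interaction (adjusted p = 0.0069). Apod, apolipoprotein D, was at 12.5, 12.9, 11.4, 12.5 and 9.42 at 6 weeks and 56.9, 54.5, 56.6 and 80.7 at 22 weeks CPM, more than a doubling in every sample (2.41 ± 0.27, interaction adjusted p = 0.013), and Prg4, lubricin, a mucin of joint surfaces, at 47.8, 44.1, 44, 58.9 and 24.8 at 6 weeks and 199.9, 342, 224 and 230 at 22 weeks CPM (2.48 ± 0.33, interaction adjusted p = 0.0049). Celf4, an RNA-binding splicing factor of neurons, rose from 1.28 to 5.72 CPM to 12.2 to 20.8 CPM (2.62 ± 0.32).

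Among genes that fell outside the lists, Mamstr, a coactivator of the MEF2 factors, was at 11.7, 17.1, 18.5, 13.1 and 18.4 at 6 weeks and 5.66, 4.54, 3.9 and 2.02 at 22 weeks CPM (-1.89 ± 0.27, interaction adjusted p = 0.0049), and Syt15, a synaptotagmin, at 43.6, 47.7, 51.9, 39.7 and 43.7 at 6 weeks and 19.5, 18.9, 14.4 and 15.5 at 22 weeks CPM (-1.39 ± 0.20, WT 0.25 ± 0.17, interaction adjusted p = 0.0036). Both were lower in every sample of 22 weeks. The largest fitted falls were those of Gm54420, Grp, Cdsn, Nnat and Vstm2b, with log2 fold changes from -2.77 to -2.25, all at 3.36 CPM or less at 22 weeks, where few reads set the value. Foxf1 rose in WT (0.70 ± 0.15) and did not pass in Ercc1Δ/- (-0.15 ± 0.17). Gm54420 lost its call without sample 004 (adjusted p up to 0.054), Grp without 005 (up to 0.059) and Cdsn without 004 or 005 (up to 0.076).

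Position in the genome was compared because some DEGs of 1 family lie together. Of 12321 pairs of neighbouring tested genes 1115 held at least 1 DEG and 40 were pairs of 2 DEGs, 32 with the same and 8 with opposite direction. Over all tested genes 2.11% rose and 2.57% fell, and whether 40 pairs exceed the number due to chance was not tested. The pairs named below were chosen for members of like kind, and other pairs join genes whose starts lie up to 925 kb apart. The pairs that fell include Col3a1 and Col5a2, Col6a1 and Col6a2, Col4a1 and Col4a2, whose starts lie 317 bases apart, and Col4a5 and Col4a6, whose starts lie 1282 bases apart. The pairs that rose include Spp1 and Ibsp, Ahsg and Fetub, Mt1 and Mt2, Osmr and Lifr, and Casp1 and Casp4.

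Gene length was compared because lesions that block transcription are more frequent in a long gene. Over 5 equal classes of genomic length the median log2 fold change went from 0.06 in the shortest to -0.04 in the longest class in Ercc1Δ/-, and from 0.01 to -0.02 in WT. In the longest class 105 genes fell and 47 rose, and in the shortest 36 fell and 56 rose. By sample the mean log2 CPM of the longest minus that of the shortest class was 0.51, 0.70, 0.59, 0.69 and 0.29 at 6 weeks and 0.58, 0.41, 0.47 and 0.46 at 22 weeks. The ages overlapped, with 0.56 ± 0.17 (SD, n = 5) and 0.48 ± 0.07 (SD, n = 4), and sample 027 of 6 weeks was the lowest of all 9.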

How the data were processed

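RNA of 29 aortic arches was sequenced. Per the labels and the study's methods, the authors trimmed reads with fastp, aligned them with STAR 2.7.10a, removed duplicates by molecular barcode with UMI-tools 1.1.2 and counted genes with HTSeq 2.0.2 on an Ensembl annotation of GRCm39. The deposited values are counts with no normalization, for 56748 genes in 29 samples, with 5 lines of unassigned reads, which were left out (12.6% to 20.5% of the counts of a sample). Sample 003 was left out for its total of 400410 counts, and samples on dietary restriction entered only the filter and 1 alternative.

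A gene was kept if over 10 of 28 samples had over 10 counts for it. The 18 AL samples were fitted together in edgeR 4.0.16, with terms for group and sex and TMM scaling, and contrasts were tested by robust quasi-likelihood, with Benjamini-Hochberg adjustment over 12353 genes. The authors used DESeq2, which is an alternative here (version 1.42.0, R 4.3.3). Levels per sample are TMM-normalized CPM. The fit was tested on simulated data with known changes. Each library came from the arch of 1 mouse, and litters were not given, so p-values measure the spread between these samples. Gene models and promoter sequence were taken from GENCODE M39 on GRCm39, and symbols came from matching 56017 of 56748 identifiers to it. Intervals of shares cover counting error only.

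The genes named were Ercc1, the 10 DEGs with the smallest p and the 5 with the largest change in each direction, up to 4 members of each list with the smallest p, genes that the study shows, the 10 DEGs with the smallest interaction p, markers of cell types, and DEGs of WT on a list. Some genes that these rules name are not reported here. The gene lists and these rules were chosen with earlier results of these data known. Col4a1, Col4a6, Col5a1, Col6a3, Col6a6, Eln, Fbln5, Nid1, Ltbp2, Ltbp3, Loxl1, Plod2, P3h1, Fkbp10, Postn, Mgp, Tpm1, Mamstr, Apod, Alpl, Hmox1, Osmr, Lyz2, Cmpk2, Lifr, Casp1, Casp4, Tnfrsf1b, Ly6a and Mertk fall outside the rules and were named after their values were seen. Alternatives changed the tool, scaling, filter, samples, sex term, fold limit and depth.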

Additional observations from a re-analysis of the deposited data

Results flagged for a closer look

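The change with age of 58 genes named above differed between Ercc1Δ/- and WT in the test of the difference itself, and each is given here with its interaction on the log2 scale, the change in Ercc1Δ/- minus the change in WT. More negative in Ercc1Δ/- were the collagen genes Col3a1 (-1.28), Col1a2 (-0.88), Col6a6 (-1.31), Col6a2 (-1.02), Col6a3 (-0.97), Col6a1 (-0.86), Col14a1 (-0.75) and Col4a5 (-0.70). The same held for the matrix assembly, secreted and adhesion genes Serpinh1 (-0.95), Loxl2 (-0.94), Mfap4 (-0.85), Fbn1 (-0.81), Fbln5 (-0.68), Ccn5 (-0.77), Fstl1 (-0.78), Scube3 (-0.99), Itga9 (-0.73) and Mmp17 (-0.63). It held also for the muscle and signalling genes Mamstr (-2.03), Casq1 (-1.48), Adra1d (-1.21), Sh3bgr (-0.96) and Slc24a3 (-0.57) and for Nnat (-3.44), Vstm2b (-2.46), Syt15 (-1.64), Tub (-1.48) and Per3 (-1.05). More positive in Ercc1Δ/- were the matrix proteases, their inhibitors and other secreted or matrix proteins Timp1 (2.00), Timp4 (1.30), Mmp3 (2.37), Col8a1 (1.22), Ltbp2 (0.70), Mgp (1.21), Spp1 (6.46), Prg4 (3.35) and Htra4 (1.69). The same held for the inflammation and lipid genes Lgals3 (2.32), Gpnmb (1.16), Vcam1 (1.25), C4b (1.46), Serpina3n (1.72), Osmr (1.105), Abcg1 (1.99), Apod (2.10) and Tmem176a (1.64). It held further for the metal, antioxidant and damage genes Mt1 (1.32), Mt2 (1.74), Cp (1.47), Ftl1 (0.69), Gpx1 (0.51) and Cdkn1a (0.83) and for Pdgfc (0.74), Adm (1.38), Ahsg (1.62), Fetub (2.77), Sncg (0.97) and Celf4 (3.02).

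In 32 of 356 groups of values, 1 Ercc1Δ/- sample lay farther from its neighbour than Dixon's limit allows, and chance alone flags about 1 in 20 groups. The groups share samples, so that they are not independent. At 6 weeks sample 002 stood apart for Bmp2 at 11.4 CPM. Sample 008 of 6 weeks did so for Aoc3 at 802 CPM, Ctsk at 81.2 CPM, Serpinf1 at 259.6 CPM and Pecam1 at 902 CPM. Sample 015 of 6 weeks did so for Celf4 at 5.72 CPM, Postn at 2020 CPM and Adgre1 at 18.5 CPM. Sample 023 of 6 weeks did so for Col4a5 at 671 CPM, Col6a1 at 1139 CPM, Col4a1 at 1633 CPM, Fkbp10 at 149.8 CPM, Fbn1 at 456 CPM, Lama4 at 308 CPM and Acta2 at 6348 CPM. Sample 027 of 6 weeks did so for Mfap5 at 573 CPM, Gucy1b1 at 188 CPM, Ace at 656 CPM and the summed fat markers at 5849 CPM. At 22 weeks sample 004 stood apart for Col4a5 at 266 CPM, Sparc at 2249 CPM, Gstk1 at 38.1 CPM and the summed fibrillar collagens at 6669 CPM. Sample 013 of 22 weeks did so for Mmp3 at 54.5 CPM, Fetub at 34.1 CPM, Sncg at 282 CPM, Tyrobp at 3.79 CPM, C3ar1 at 5.3 CPM and Flt1 at 113 CPM. Sample 026 of 22 weeks did so for Lox at 120.4 CPM, Alpl at 11.4 CPM and Apod at 80.7 CPM. Sample 023 gave 7 of these values, most of them matrix genes, and samples 013 and 026, which had the fewest counts of their group, gave 6 and 3.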

How the results depend on the processing

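The 579 DEGs of Ercc1Δ/- became 728 with DESeq2, 575 with RLE scaling, 612 without a filter, 593 without the sex term, 683 with all 28 samples, 412 with only the compared groups and 425 with sample 003. They became 240 when tested against a 1.2-fold change, 108 with all libraries thinned to 955589 counts, 128 in males and 327 in females. Leaving out 1 sample gave 322 (without 004) to 748 (without 027), with 356 without 008 and 364 without 005. In 2 alternatives chosen after seeing the data, 559 were called with edgeR's earlier dispersion method and 428 without samples 013 and 026. Without these 2 samples 40 of the 154 named DEGs lost their call. Some lists then had fewer calls. Secreted factors of senescent cells had 4 higher in place of 7, and glucocorticoid targets 0 in place of 2. Collagen enzymes had 6 lower in place of 11. Others had more calls. Complement genes had 9 higher in place of 5, and macrophage markers 14 in place of 12. The contractile apparatus had 12 lower in place of 9.

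The 29 DEGs of WT became 106 with DESeq2, 70 without a filter, 3 against a 1.2-fold change, 14 after thinning and 9 in males. Leaving out 1 sample gave 8 (without 025) to 30, with 18 without 001 and 16 without 009. The 104 interactions became 191 with DESeq2, 21 after thinning and 4 in males. Leaving out 1 sample gave 55 (without WT sample 018) to 134 (without 027), with 63 without 004. WT and interaction counts in females alone were not computed, since WT of 22 weeks held 1 female without sample 003. Of 64 lists 46 had a DEG, and 30 had one in males. In 6 lists (proteoglycans, matricellular proteins, vasoactive signals, lysosomal genes, glucocorticoid targets and endothelial markers) the balance of rises and falls turned in at least 1 alternative. With the promoter window ended at the start site, the motif share was 47.6% in place of 71.4% for mitosis genes, whose motifs were TTTGAA or CCAAT, and 31.9% in place of 46.8% for interferon-stimulated genes.

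All 154 named DEGs kept their direction in every alternative run, 109 kept their call in each fit that left out 1 sample, and 40 kept it in all alternatives. The other 45 lost it without at least 1 sample, most often without 004 (34 genes), 005 or 008 (30 each). In the exact two-sided permutation test 126 of them reached 0.01587, the smallest p that 4 against 5 samples allow. Among genes not called, the log2 change turned to 0.081 for Tagln and -0.0067 for Csf1r in males, to 0.029 for Foxf1 and 0.040 for Cdh5 in females, and to 0.097 for Irf3 and 0.0027 for Srf after thinning. Leaving out 1 sample gave -0.15 to 0.014 for Irf3 (above 0 without 027, and 0.0027 without 005) and -0.018 (without 013) to 0.20 for Pdgfra. The change turned to 0.021 for Pecam1 without 013 and 026. The cause of these shifts was not tested, except that thinning and single-sex fits hold fewer counts or samples. No paired analysis was possible because the groups share no replicate numbers. Depth limits genes of a few CPM, where 1 count moves a library with few counts by the most.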
